A study of Mus musculus with 27 samples.

Results

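The interferon-stimulated and antigen presentation genes described here were 41 genes, taken by symbol out of the 24953 gene rows of one expression table, and all 41 were found in it. They comprise transcription factors of the interferon response, sensors of viral RNA, antiviral effectors, the ISG15 conjugation system, and the class I antigen presentation machinery. The table holds 9 mRNA libraries from mK4 cells, an immortalised mouse line of metanephric mesenchyme, the embryonic tissue that forms the nephrons of the kidney. The study asked what the transcription factor Runx1 does in these cells, and compared the effect of its loss with that of losing the repressors Zeb1 and Zeb2. Control mK4 cells were wild type. Runx1KO cells were mK4 sub-lines in which CRISPR/Cas9 removed the third exon of Runx1, which carries the start codon used in this line. ZebDKO cells (Zeb1 and Zeb2 DKO) carried deletions of the start codon exons of both Zeb genes, the second of Zeb1 and the first of Zeb2. Each group had 3 libraries, from wells grown to near confluency in serum-containing medium, and the stated protocols name no added interferon. Both knockouts were grown from picked clones, and the number of clones behind the 3 libraries is not stated, so that genotype and clone cannot be told apart. The ZebDKO libraries also carry processing notes that differ from those of the other 6, so that genotype and these differences cannot be told apart there.

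Interferons are cytokines released by infected or activated cells. Their receptors signal through JAK kinases to transcription factors that bind the interferon-stimulated response element or the gamma-activated sequence. The induced genes block viral replication, or cut proteins into peptides and show them on class I molecules to CD8 T cells. Most nucleated cells keep a low basal level of these genes, and mesenchymal and epithelial cells can respond to interferon as leukocytes do.

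Values are TPM, the transcript abundance of a gene scaled by transcript length and library total, so that levels can be compared between genes. Differences are log2 differences of TPM + 1 between group means, with the standard error (SE) and the Benjamini-Hochberg adjusted p from limma over all genes tested. A gene was tested when at least 3 of the 6 libraries compared reached 1 TPM, and it was called higher or lower when the adjusted p was under 0.05 and the change was over 2-fold. Adding 1 TPM understates the change of genes at low levels, and with 0.1 TPM in its place the differences of Ifih1, Ifit1, Rsad2, Mx2, Psmb8 and Gbp2 were over 1.5 times as large in a comparison with control that called them. Libraries held 12541 to 12697 genes at 1 TPM or more. Replicates correlated at r = 0.994 to 0.9955, and read depth cannot be read from TPM. The median of all genes tested stood at −0.06 in Runx1KO against control cells, at −0.18 in ZebDKO against control cells and at 0.15 in Runx1KO against ZebDKO cells, and these shifts are the zero against which small differences should be read.

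Labels were checked against the targeted genes and cell type markers. Runx1 stood at 15.6 to 18.7 TPM in control, 28.5 to 30.3 TPM in Runx1KO and 9.4 to 10.5 TPM in ZebDKO libraries, and since a gene-level value covers the exons outside the deletion it does not check the knockout. The same holds for Zeb1 in ZebDKO cells, at 14.8 to 16.8 TPM against 14.2 to 15.6 TPM in control cells. Zeb1 was at 0.1 to 0.2 TPM in Runx1KO cells. Zeb2 stood at 4.9 to 5.5 TPM in control, 0.2 TPM in Runx1KO and 1.6 to 1.8 TPM in ZebDKO libraries. Of 15 markers of metanephric mesenchyme, 8 reached 1 TPM in control, 6 in Runx1KO and 8 in ZebDKO cells. Osr1 stood at 64.1 to 70.9 TPM in control, 0.3 to 0.5 TPM in Runx1KO and 17.1 to 18.9 TPM in ZebDKO cells, and Wt1 did not exceed 0.3 TPM in any library. Other markers of the list took other orders: Gdnf stood at 11.4 to 13.6, 0.1 and 38.6 to 41.4 TPM, and Vim at 2749 to 2887, 2782 to 2845 and 2076 to 2114 TPM, in control, Runx1KO and ZebDKO libraries. Of 10 epithelial markers, 1 to 2 reached 1 TPM in control, 7 in Runx1KO and 5 to 6 in ZebDKO libraries. Krt8 stood at 1.8 to 3.6 TPM in control, 2302 to 2394 TPM in Runx1KO and 1027 to 1087 TPM in ZebDKO cells. Others of this list stayed low or differed between the knockouts. Cdh1 had means of 0.1, 0.2 and 0.5 TPM and Epcam of 0, 0 and 27.9 TPM in control, Runx1KO and ZebDKO cells. Of 18 leukocyte markers, 3 to 4 reached 1 TPM in control, 5 in Runx1KO and 6 in ZebDKO libraries, with summed levels of 131 to 137, 169 to 181 and 120 to 130 TPM. The defining leukocyte markers Ptprc and Adgre1 were listed at 0 in all 9 libraries, and Cd3e did not exceed 0.1 TPM. Other genes of the list were present, and 4 are named here after their values were seen. Cd14 made up most of the sum in every group. Csf1r stood at 0.4 to 1 TPM in control, 28.8 to 30.5 TPM in Runx1KO and 23.1 to 26.1 TPM in ZebDKO libraries. Laptm5 stood at 0.2, 15.5 to 21.8 and 1.1 to 1.6 TPM, and Cd79a at 4.1 to 5.8, 2.2 to 3.3 and 11.4 to 14.6 TPM in the same groups. The part of these marker changes in the results was not tested. In such bulk libraries, fewer cells that express a gene and less RNA per cell cannot be told apart.

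By exact letter match, interferon motifs were in a larger share of member promoters than of all genes, and about as many member promoters held at least 1 as held none. The share of all genes with either motif was not counted. A RefSeq promoter of 300 bases (250 before and 50 after the start, GRCm38.p6) was found for 33 of the 41 members, and both strands were searched. The core of the interferon-stimulated response element, taken as 2 copies of GAAA with any 2 bases between them, was present in 13 of these 33 (39.4%) against 3.99% of 27025 genes with a promoter. The gamma-activated sequence, taken as TTC and GAA with any 3 bases between them, was present in 7 of 33 (21.2%) against 9.55% of all genes. Either motif was present in 17 of the 33 and neither in 16. The Runx core TGTGGT was in 5 of 33 (15.2%, against 18.9%) and the E-box bound by Zeb proteins, CAGGTG, in 10 of 33 (30.3%, against 22.6%). The 13 with a response element were Stat2, Ifih1, Eif2ak2, Ifit1, Ifit3, Rsad2, Bst2, Ifitm3, Isg15, B2m, Gbp2, Gbp3 and Irgm1. The following stretches end at the base before the start and are printed to show how differently placed and numbered these elements are in genes whose levels moved in different ways. Coordinates are mm9, capitals mark the response element and the gamma-activated sequence, and adjoining or overlapping matches run together.
Ifit1, chr19:34715229-34715378, plus strand: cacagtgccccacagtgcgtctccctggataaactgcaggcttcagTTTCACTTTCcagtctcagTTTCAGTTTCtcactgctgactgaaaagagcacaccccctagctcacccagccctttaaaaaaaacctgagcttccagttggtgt
Isg15, chr4:155574928-155575077, minus strand: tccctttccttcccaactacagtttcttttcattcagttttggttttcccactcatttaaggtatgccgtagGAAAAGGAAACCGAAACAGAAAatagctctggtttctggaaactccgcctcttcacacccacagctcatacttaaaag
Rsad2, chr12:27141318-27141467, minus strand: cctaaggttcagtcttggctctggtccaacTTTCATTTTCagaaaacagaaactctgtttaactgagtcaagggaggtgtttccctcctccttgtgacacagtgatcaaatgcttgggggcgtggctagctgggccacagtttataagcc
B2m, chr2:121973273-121973422, plus strand: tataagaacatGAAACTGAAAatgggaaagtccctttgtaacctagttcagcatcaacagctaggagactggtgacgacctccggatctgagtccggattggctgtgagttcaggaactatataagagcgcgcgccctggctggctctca
Irf1, chr11:53583366-53583515, plus strand: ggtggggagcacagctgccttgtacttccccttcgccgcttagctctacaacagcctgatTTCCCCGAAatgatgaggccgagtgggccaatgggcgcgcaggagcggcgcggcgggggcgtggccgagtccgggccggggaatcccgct
Bst2, chr8:74061372-74061521, minus strand: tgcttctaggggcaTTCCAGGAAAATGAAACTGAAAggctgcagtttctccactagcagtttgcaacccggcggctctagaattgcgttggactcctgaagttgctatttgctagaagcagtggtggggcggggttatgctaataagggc
Ifit1 held 2 separate response elements, Isg15 held 3 that overlap, and Rsad2 and B2m held 1 each. Irf1 held a gamma-activated sequence and no response element in this window. In Bst2 a gamma-activated sequence overlapped the first of 2 response elements, which overlap each other. A match is a run of letters and not a bound site.

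Against control cells, the 41 genes did not move as a block in either knockout. In Runx1KO cells 35 members were tested, of which 7 were called higher (Ifih1, Ifit1, Rsad2, Mx2, Usp18, Psmb9 and H2-K1) and 2 lower (Irf1 and Ifitm3), where 7.91% of all 13067 genes tested were called higher and 5.1% lower (13% either way). By adjusted p alone 20 members were higher and 7 lower, beside 30.4% and 40.1% of all genes (70.5% either way). The members' median difference was 0.29. In ZebDKO cells 33 members were tested, of which 6 were called higher (Irf1, Rsad2, Usp18, Psmb8, H2-K1 and H2-D1) and 2 lower (Eif2ak2 and Gbp2), where 7.49% of 12974 genes were called higher and 7.28% lower (14.8% either way). By adjusted p alone 14 were higher and 10 lower, beside 26.9% and 52.5% of all genes (79.4% either way), and the members' median was 0.06. Both comparisons use the same 3 control libraries. Among the called members, Ifih1, Ifit1, Rsad2, Mx2, Usp18 and Psmb8 passed the filter in a comparison only through the knockout libraries in which they were high, so that their direction there was set by the filter. The same holds for the pathway genes Ifnlr1, Nlrc5, Oas1a, Oas3 and Cd74 described further on, which were under 1 TPM in every control library. In the other direction, Sp100 in both knockouts and Xaf1 in ZebDKO cells passed only through the control libraries, so that the filter set their falls. Gbp2 in ZebDKO cells passed mainly through the control libraries and Irf7 mainly through the Runx1KO libraries, so that their directions were not free either.

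The 3 libraries of a group stood wholly above or wholly below those of the other for 28 of 35 members in Runx1KO against control cells (73.7% of all genes) and for 25 of 33 in ZebDKO against control cells (81% of all genes). With so many genes apart, the absence of overlap alone singles out no member. Called in both knockouts in the same direction were Rsad2, Usp18 and H2-K1, and Irf1 was called in opposite directions. Mx1, Gbp3 and Ifi44 stayed under 1 TPM in all 9 libraries, and Dhx58 and Oasl2 were also under the filter in all 3 comparisons. The summed TPM of the 41 members was 1881 to 1970 in control, 1933 to 2012 in Runx1KO and 3332 to 3359 in ZebDKO libraries. ZebDKO libraries were the high ones, and most of their sum lay in Irf1, B2m, H2-K1, H2-D1, Bst2 and Ifitm3.

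**Figure D1:**
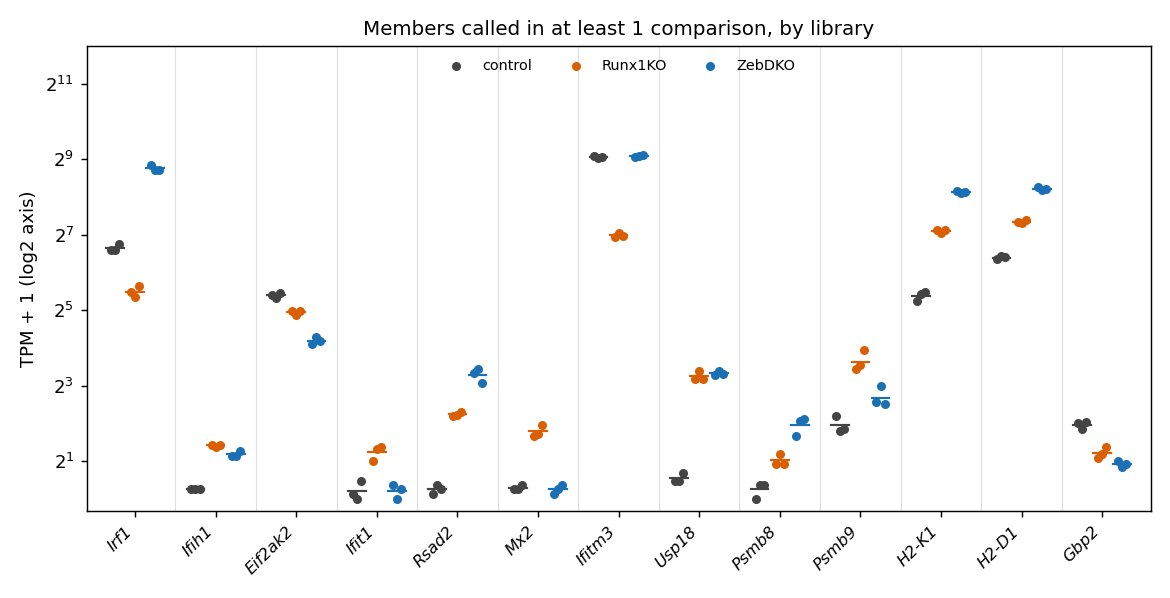
TPM + 1 on a log2 axis for the 13 members called in at least 1 comparison, with a point for each of the 3 libraries of control, Runx1KO and ZebDKO cells and a bar at the mean of the log2 values. Irf1 lies below control in Runx1KO (39.6 to 48.5 TPM) and above it in ZebDKO cells (418.2 to 455.9 TPM), while Rsad2 and Usp18 are near 0 TPM in control and higher in both knockouts.

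Of the 4 transcription factors, Irf1 alone was called in any comparison. IRF1 activates class I genes and antiviral effectors. Its level was 96.2, 95 and 106.8 TPM in control, 43.6, 39.6 and 48.5 TPM in Runx1KO, and 455.9, 422.1 and 418.2 TPM in ZebDKO libraries. The 3 groups did not overlap, with Runx1KO lowest and ZebDKO highest. Irf1 fell in Runx1KO cells by 1.16 (SE 0.079, adjusted p = 1.35e-05) and rose in ZebDKO cells by 2.11 (SE 0.0549, adjusted p = 9.58e-08). The direct comparison of Runx1KO with ZebDKO libraries gave −3.27 (SE 0.0725, adjusted p = 5.37e-08).

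The other members of this role moved less. Irf7, which amplifies the type I response, stood at 1.9 to 2.3 TPM in Runx1KO cells against 0.7 to 1.0 TPM in control and 0.6 to 0.9 TPM in ZebDKO cells, a difference from control of 0.76 (adjusted p = 0.000386) that did not reach 2-fold. It was 1.25 and called with a pseudocount of 0.1 TPM. In the second deposited table, of 6 libraries, the same difference was 1.03 and was called. Irf9, a DNA-binding factor of the type I response, stood at 6.5 to 6.8 TPM in control, 7.4 to 9.5 TPM in Runx1KO and 8.2 to 10 TPM in ZebDKO cells. Stat2 was at 16.5 to 20.6, 14.9 to 16.7 and 17.1 to 17.4 TPM, and passed the test in neither knockout (adjusted p = 0.0793 and 0.503).

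Of the sensors of double-stranded RNA among the members only Ifih1 was tested, and the filter set its direction against control. The mRNA of the kinase that responds to such RNA was lower in every knockout library. The sensors Ddx58 and Tlr3, which are not members, were tested too and were called in neither knockout against control. Ifih1, which encodes the sensor MDA5, was at 0.2 TPM in all 3 control libraries, at 1.7, 1.6 and 1.7 TPM in Runx1KO and at 1.2, 1.2 and 1.4 TPM in ZebDKO libraries. It rose in Runx1KO cells by 1.15 (SE 0.0832, adjusted p = 1.86e-05), while the ZebDKO difference of 0.92 (adjusted p = 6.83e-05) did not reach 2-fold. With quantile normalization the Runx1KO difference of Ifih1 was 0.99, just under the limit. The ZebDKO difference of Ifih1 was 2.18 and 1.33, and called, with pseudocounts of 0.1 and 0.5 TPM. Eif2ak2, which encodes the translation-blocking kinase PKR, stood at 41.3, 39 and 43.2 TPM in control, 30.4, 28.4 and 30.4 TPM in Runx1KO and 16.3, 18.4 and 17 TPM in ZebDKO libraries. Every knockout library was below every control library, and only the ZebDKO fall was called (−1.21, SE 0.0592, adjusted p = 1.76e-06, against −0.46 in Runx1KO cells). The direct difference between the knockouts was 0.75 (adjusted p = 1.08e-05).

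Among the antiviral effectors, Rsad2 was close to silent in control cells and on in both knockouts. RSAD2 (viperin) makes a chain-terminating nucleotide that stops viral RNA synthesis. Rsad2 was at 0.1, 0.3 and 0.2 TPM in control, 3.6, 3.7 and 3.9 TPM in Runx1KO and 9.1, 9.8 and 7.4 TPM in ZebDKO libraries. No groups overlapped and ZebDKO was highest. The rise was 1.98 (SE 0.0927, adjusted p = 2.05e-06) in Runx1KO and 3.02 (SE 0.118, adjusted p = 6.43e-07) in ZebDKO cells. In the second deposited table, of 6 libraries, the Runx1KO difference of Rsad2 was 1.25 in place of 1.98. Runx1KO was lower than ZebDKO by a difference of −1.04 (SE 0.0978, adjusted p = 4.13e-05), which was −0.96 and no longer over 2-fold without ZebDKO replicate 2.

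Mx2 was called higher and Ifitm3 lower in Runx1KO cells against both other groups. Mx2 encodes a dynamin-like GTPase that traps viral particles, and is defective in many inbred mouse strains. It was at 0.2, 0.2 and 0.3 TPM in control, 2.2, 2.3 and 2.9 TPM in Runx1KO and 0.1, 0.2 and 0.3 TPM in ZebDKO libraries. Runx1KO libraries were the high ones, and control and ZebDKO libraries overlapped. The rise over control was 1.49 (SE 0.107, adjusted p = 1.83e-05) and the direct difference from ZebDKO 1.53 (SE 0.117, adjusted p = 1.38e-05). Ifitm3, a membrane protein that blocks virus entry and one of the most abundant members, was at 539.5, 519.6 and 531.3 TPM in control, 121, 131.2 and 123.7 TPM in Runx1KO and 535.8, 538.5 and 549.1 TPM in ZebDKO libraries. It fell in Runx1KO cells by 2.07 (SE 0.0353, adjusted p = 1.92e-08). In ZebDKO against control cells it differed by 0.03 (95% interval −0.03 to 0.09, adjusted p = 0.319), and the direct difference was −2.10 (SE 0.0342, adjusted p = 1.99e-08).

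The Ifit genes, whose proteins bind viral RNA lacking host cap marks, did not move together, although the filter set the direction of Ifit1. Ifit1 was at 0.1, 0 and 0.4 TPM in control, 1, 1.5 and 1.6 TPM in Runx1KO and 0.3, 0 and 0.2 TPM in ZebDKO libraries. Its rise in Runx1KO cells was 1.03 (SE 0.166, adjusted p = 0.00116), close to the limit. Without control replicate 1, control replicate 2, Runx1KO replicate 2 or Runx1KO replicate 3 it was 0.99, 0.92, 0.98 and 0.95, and with quantile normalization 0.90, none of them over 2-fold. The direct difference of Ifit1 from ZebDKO cells was 1.02 (adjusted p = 0.000475), and 0.96 with median-ratio scaling. It was 0.98, 0.95 and 0.91 without Runx1KO replicate 2, Runx1KO replicate 3 and ZebDKO replicate 2. Ifit2 moved the other way, from 10.6 to 10.9 TPM in control to 6.9 to 7.3 TPM in Runx1KO (−0.54) and 5 to 5.8 TPM in ZebDKO cells (−0.89), and was not called in either. Ifit3 ranged over 0.5 to 1.3, 0.9 to 2.6 and 0.7 to 1.1 TPM, and shares reads with a near-identical copy, so its value is uncertain.

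The other effectors were not called. Bst2, which tethers budding virions to the cell surface, stood at 197.5 to 201.8 TPM in control, 232.1 to 243.8 TPM in Runx1KO and 307.9 to 327.4 TPM in ZebDKO cells, differences of 0.25 and 0.68 that both passed the adjusted p without reaching 2-fold. Samd9l was at 40.3 to 44.8, 48.3 to 50 and 25 to 28.1 TPM. Cmpk2, the mitochondrial nucleotide kinase beside Rsad2, was at 1.8 to 2.9, 0.9 to 1.1 and 1.7 to 2.7 TPM, and its difference in Runx1KO cells was −0.78 (adjusted p = 0.00177), which was −1.20 and called with a pseudocount of 0.1 TPM. The neighbouring genes Rsad2 and Cmpk2 had differences of opposite sign in Runx1KO cells, but the sign for Rsad2 was set by the filter. Rtp4 ranged from 0.4 to 2.1 TPM over all 9 libraries.

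The mRNA of the deconjugating enzyme of the ISG15 system rose in both knockouts, a direction set by the filter, while that of Isg15 itself did not. Usp18 removes the ubiquitin-like protein ISG15 from its targets and damps signalling from the type I receptor. It was at 0.4, 0.4 and 0.6 TPM in control, 8.1, 9.4 and 8 TPM in Runx1KO and 8.8, 9.4 and 9 TPM in ZebDKO libraries. The rise was 2.69 (SE 0.0937, adjusted p = 4.48e-07) and 2.78 (SE 0.083, adjusted p = 1.7e-07), and the knockouts overlapped, with a direct difference of −0.09 (95% interval −0.25 to 0.08, adjusted p = 0.282). Isg15 was at 12.6, 11.7 and 9.5 TPM in control, 8.9, 9.7 and 6.1 TPM in Runx1KO and 7.1, 8 and 5.2 TPM in ZebDKO libraries. Its differences were −0.42 (adjusted p = 0.0568) and −0.67 (adjusted p = 0.00479), neither over 2-fold. Trim25, a ligase for ISG15 and an activator of RNA sensing, was at 28.2 to 30.1 TPM in control and Runx1KO libraries and at 20.9 to 21.3 TPM in ZebDKO libraries. In the ADP-ribosylation group Parp9 and its partner Dtx3l, which share a promoter region, stood at 23.3 to 26.6 and 13 to 14.7 TPM in control and at 31.8 to 37 and 16.5 to 18.2 TPM in Runx1KO cells, and Parp14 stayed at 1.7 to 2.8 TPM throughout.

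**Figure D2:**
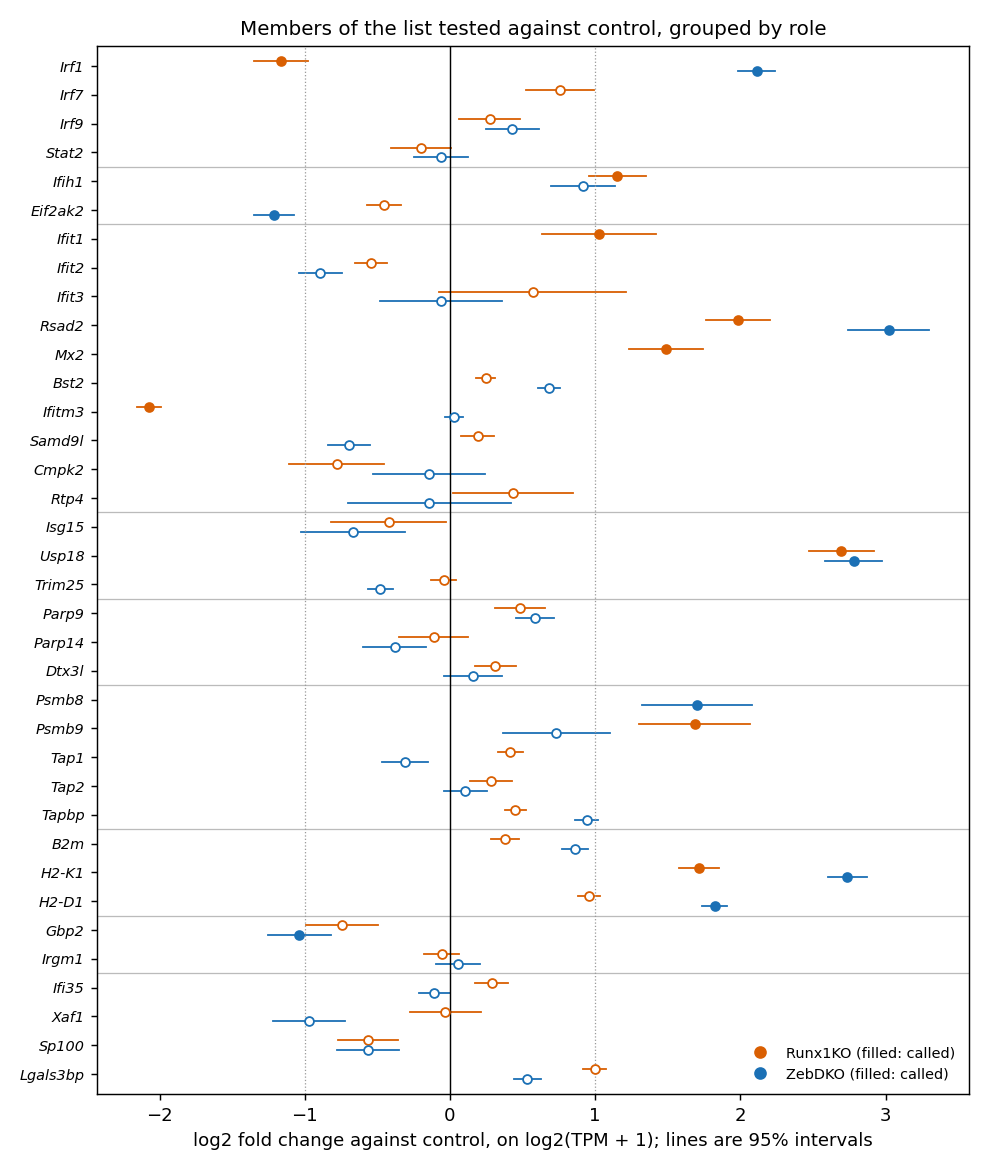
Log2 fold change against control on log2(TPM + 1) for each tested member, grouped by role, with 95% intervals from limma, filled points for called members and dotted lines at 2-fold. Usp18, Rsad2 and H2-K1 lie to the right of the upper line in both knockouts, and Irf1 lies at −1.16 in Runx1KO and 2.11 in ZebDKO cells.

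The mRNA of H2-K1, H2-D1 and B2m was higher in both knockouts, and more so in ZebDKO cells. In Runx1KO cells only H2-K1 was called, and in ZebDKO cells H2-K1 and H2-D1. Protein was not measured in these libraries. The class I molecule consists of a heavy chain, encoded here by H2-K1 or H2-D1, and the invariant chain B2m. H2-K1 was at 37.2, 42.3 and 43.3 TPM in control, 138.3, 132 and 138.4 TPM in Runx1KO and 283.4, 273.3 and 277 TPM in ZebDKO libraries. H2-D1 was at 80.2, 84.9 and 83.6 TPM in control, 161.9, 157.9 and 165.8 TPM in Runx1KO and 305.2, 287.6 and 294.5 TPM in ZebDKO libraries. Both genes followed the order control, Runx1KO, ZebDKO with no overlap between neighbours. The rise of H2-K1 was 1.71 (SE 0.0588, adjusted p = 4.2e-07) in Runx1KO and 2.74 (SE 0.0574, adjusted p = 4.41e-08) in ZebDKO cells. The direct difference of H2-K1 was −1.02 (SE 0.0297, adjusted p = 1.63e-07), and −0.98 with quantile normalization.

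H2-D1 rose in ZebDKO cells by 1.82 (SE 0.036, adjusted p = 3.42e-08). Its difference in Runx1KO cells of 0.96 (SE 0.0328, adjusted p = 4.2e-07) fell just short of 2-fold, and was 1.02 and called with median-ratio scaling. B2m was at 535.8, 488.3 and 530.8 TPM in control, 656, 677.9 and 690.8 TPM in Runx1KO and 938.3, 937.9 and 947.7 TPM in ZebDKO libraries, differences of 0.38 and 0.86. In ZebDKO cells the median-ratio scaling gave B2m 1.06 and Tapbp 1.14, both then called. Class I heavy chain genes are near copies of each other and their reads can be split wrongly between them, so single values are uncertain. The sum over 12 heavy chain genes, which depends less on how reads are split among them, was 262 to 287 TPM in control, 578 to 608 TPM in Runx1KO and 1068 to 1133 TPM in ZebDKO libraries. It includes H2-L, at means of 84, 161.7 and 326.6 TPM in these groups. The second deposited table listed H2-L at 0 in all its control and Runx1KO libraries, so the sum is uncertain too.

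**Figure D3:**
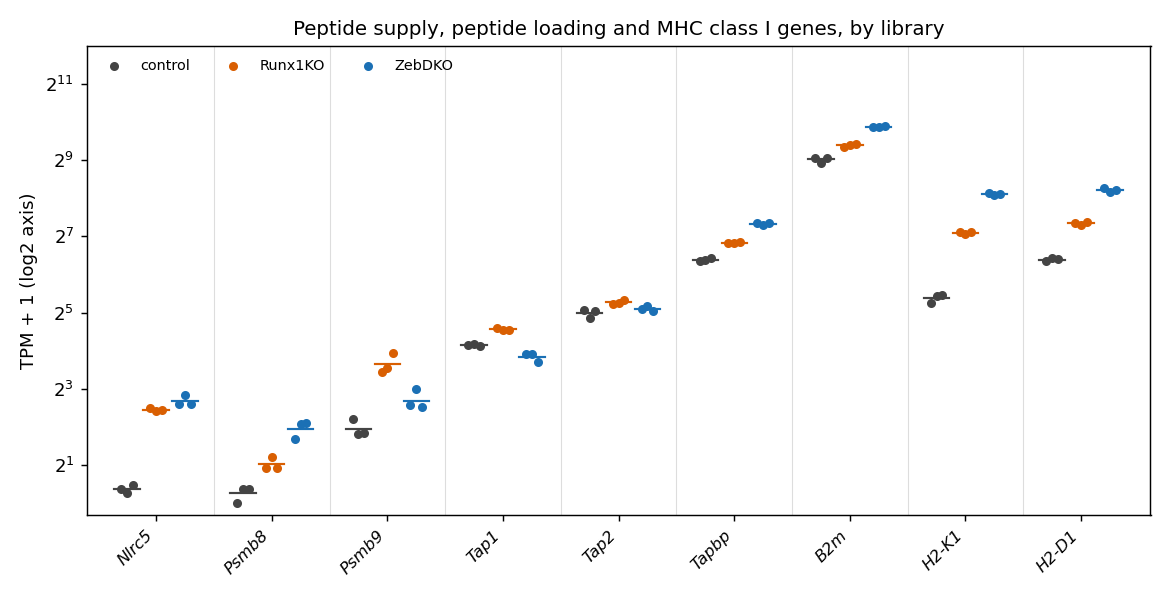
TPM + 1 on a log2 axis for genes of class I antigen presentation and their transactivator Nlrc5, with a point for each of the 3 libraries of control, Runx1KO and ZebDKO cells and a bar at the mean of the log2 values. H2-K1, H2-D1 and B2m stand in the order control, Runx1KO, ZebDKO without overlap, whereas Psmb9 is highest in Runx1KO at 9.8 to 14.4 TPM.

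The closeness of the heavy chain genes is visible in their promoters. The stretch before the H2-K1 start is shown with the longest run that it shares with the RefSeq window of H2-D1 in capitals, 47 bases.
H2-K1, chr17:34137279-34137438, minus strand: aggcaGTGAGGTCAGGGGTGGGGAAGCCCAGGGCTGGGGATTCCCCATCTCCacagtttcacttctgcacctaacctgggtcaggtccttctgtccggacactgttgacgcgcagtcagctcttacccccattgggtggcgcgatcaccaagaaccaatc

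Of the 5 genes of the immunoproteasome and peptide transport, Psmb9 was called in Runx1KO and Psmb8 in ZebDKO cells, and none in the direct comparison. Psmb8 and Psmb9 replace catalytic subunits of the proteasome to form the immunoproteasome, and Tap1 and Tap2 carry the peptides into the endoplasmic reticulum, where Tapbp helps load them. Psmb9 was at 3.6, 2.5 and 2.6 TPM in control, 9.8, 10.6 and 14.4 TPM in Runx1KO and 4.9, 6.9 and 4.7 TPM in ZebDKO libraries. It was highest in Runx1KO cells with no overlap, and rose there by 1.69 (SE 0.161, adjusted p = 7.7e-05) against a difference of 0.73 (adjusted p = 0.00344) in ZebDKO cells. Psmb8 was at 0, 0.3 and 0.3 TPM in control, 0.9, 1.3 and 0.9 TPM in Runx1KO and 2.2, 3.2 and 3.3 TPM in ZebDKO libraries, with a rise of 1.70 (SE 0.161, adjusted p = 4.35e-05) in ZebDKO cells.

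The direct differences between the knockouts, 0.95 for Psmb9 (adjusted p = 0.00127) and −0.93 for Psmb8 (adjusted p = 0.000576), were of opposite sign and neither was over 2-fold. Psmb9 passed 2-fold at 1.06, 1.004 and 1.10 without Runx1KO replicate 1, Runx1KO replicate 2 and ZebDKO replicate 2. Psmb8 passed it at −1.03 and −1.07 without Runx1KO replicate 2 and ZebDKO replicate 1, at −1.03 with median-ratio scaling and at −1.06 with quantile normalization. With a pseudocount of 0.1 TPM the direct differences were 1.06 for Psmb9 and −1.40 for Psmb8. Tap1 was at 16.3 to 17.1 TPM in control, 22.5 to 23 TPM in Runx1KO and 12 to 14 TPM in ZebDKO cells, a direct difference of 0.73 (SE 0.0635, adjusted p = 2.76e-05). Tap2 stood at 28.1 to 32.4, 36.2 to 39.3 and 31.9 to 34.8 TPM, and Tapbp at 80.5 to 84.9, 112 to 115.6 and 156.1 to 162 TPM. Tap1 and Psmb9 are transcribed away from each other from starts with 225 bases between them. Both had their highest levels in Runx1KO cells, and the strand setting of the counting is not given in the sources used here, so their reads near the starts may not be fully separated. The shared stretch, read toward Tap1, holds an E-box in capitals.
Tap1, chr17:34324281-34324500, plus strand: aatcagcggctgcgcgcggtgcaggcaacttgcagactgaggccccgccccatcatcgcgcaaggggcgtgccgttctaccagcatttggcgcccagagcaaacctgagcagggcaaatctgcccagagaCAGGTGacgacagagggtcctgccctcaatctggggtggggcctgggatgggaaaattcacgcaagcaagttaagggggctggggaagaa

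The interferon-inducible GTPases and the remaining genes gave few calls. Gbp2, which attacks the vacuoles of intracellular pathogens, was at 3, 2.6 and 3.1 TPM in control, 1.1, 1.3 and 1.6 TPM in Runx1KO and 1, 0.8 and 0.9 TPM in ZebDKO libraries. Both knockouts were below control without overlap. The ZebDKO fall was −1.04 (SE 0.0916, adjusted p = 3.08e-05) and the Runx1KO difference −0.74 (adjusted p = 0.000575), which was −1.08 and called with a pseudocount of 0.1 TPM. The ZebDKO call rested on single libraries: it was −0.999 without control replicate 3 and −0.998 without ZebDKO replicate 2, both just under 2-fold, and −0.92 with median-ratio scaling. Irgm1 stayed at 21.3 to 24.7 TPM in all 9 libraries. Lgals3bp, a secreted glycoprotein, was at 51.1 to 52.4 TPM in control, 102 to 108.8 TPM in Runx1KO and 72 to 77.6 TPM in ZebDKO cells. Its Runx1KO difference of 0.997 (SE 0.0338, adjusted p = 3.99e-07) lay just under 2-fold. It was over 2-fold without control replicate 1, Runx1KO replicate 1 or Runx1KO replicate 3 (1.004, 1.01 and 1.01), with median-ratio scaling (1.06) and with quantile normalization (1.02).

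Xaf1, a proapoptotic protein, was at 1.8 to 2.3 TPM in control, 1.7 to 2.2 TPM in Runx1KO and 0.5 to 0.7 TPM in ZebDKO cells, a ZebDKO difference of −0.97 (adjusted p = 9.18e-05). It was called at −1.03 without control replicate 1 or ZebDKO replicate 2 and at −1.14 with quantile normalization, and was −1.71 and −1.27 with pseudocounts of 0.1 and 0.5 TPM. Its direct difference of 0.94 was 1.01 and over 2-fold without Runx1KO replicate 1, and 1.66 and 1.23 with those pseudocounts. Every ZebDKO library was under 1 TPM, so that the filter set the direction of Xaf1 in both comparisons with ZebDKO cells. The nuclear body protein Sp100 was at 1.2 to 1.3 TPM in control and at 0.5 to 0.6 TPM in both knockouts (−0.56 in each), and was called at −1.11 in each with a pseudocount of 0.1 TPM. Its direction was set by the filter. Ifi35 stood at 38.3 to 40.8, 45.9 to 50.8 and 35.2 to 37.9 TPM.

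Compared directly, Runx1KO and ZebDKO cells differed in 6 of the 35 members tested. Ifit1 and Mx2 were higher in Runx1KO, where 9.2% of all 13071 genes tested were called, and Irf1, Rsad2, Ifitm3 and H2-K1 were lower, where 6.59% were called (15.8% either way). Ifit1 and Mx2 were under 1 TPM in every ZebDKO library, so that the filter set their direction here too. By adjusted p alone 18 members were higher in Runx1KO and 11 lower, beside 50.2% and 29.8% of all genes (80% either way). Libraries did not overlap for 27 of 35 members (81.7% of all genes). The members' median was 0.24. With median-ratio scaling the member calls were 1 higher and 6 lower, and over all genes 918 higher and 1053 lower in place of 1203 and 862. Quantile normalization gave 907 and 1000 over all genes. No member that was called changed sign under any scaling. This shows little, since a call needs a change over 2-fold and the scalings moved the median of all genes far less.

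The rest of the interferon and antigen presentation pathway was followed through 144 further genes, of which 141 were listed in the table. In Runx1KO cells 95 were tested, with 15 called higher and 7 lower, beside 7.91% and 5.1% of all genes. In ZebDKO cells 94 were tested, with 17 higher and 5 lower, beside 7.49% and 7.28%. The direct comparison tested 97, with 6 higher and 15 lower in Runx1KO cells, beside 9.2% and 6.59%. None of the 10 interferon ligand genes was tested in any comparison: their highest value was 0.3 TPM, Ifnk was listed at 0 in all 9 libraries and Ifnb1 was at 0.2 TPM in 1 Runx1KO library.

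Receptors and signalling components moved by gene. Ifnlr1, the ligand-specific chain of the type III interferon receptor, was at 0.2, 0.4 and 0.4 TPM in control, 16, 15.4 and 17.4 TPM in Runx1KO and 28.7, 28.2 and 26.1 TPM in ZebDKO libraries. Its differences from control were 3.70 (SE 0.0877, adjusted p = 7.69e-08) and 4.43 (SE 0.0838, adjusted p = 2.82e-08), and its direction was set by the filter. Ifngr1, the ligand-binding chain of the type II receptor, was at 166.2 to 177.8 TPM in control, 61.3 to 62.7 TPM in Runx1KO and 141.2 to 156.2 TPM in ZebDKO libraries, and fell in Runx1KO cells by 1.45 (SE 0.0324, adjusted p = 5.79e-08). Ifnar1, of the type I receptor, was at 29.8 to 30.9 TPM in control and 29.5 to 30.2 TPM in Runx1KO cells (adjusted p = 0.435), and at 22.3 to 23.5 TPM in ZebDKO cells, below every control library (−0.39, adjusted p = 6.92e-05, not over 2-fold). The inhibitor Socs1 was at 10.6 to 14.3, 2.3 to 2.6 and 21.7 to 22.7 TPM, and Socs3 at 201.2 to 228.1, 162.8 to 181.5 and 57.3 to 61.7 TPM.

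Among further targets, the calls again differed by gene. Cxcl10, a chemokine that draws T cells, was at 137.8, 121.2 and 154 TPM in control, 22.2, 22.3 and 23.3 TPM in Runx1KO and 366, 336.7 and 316.5 TPM in ZebDKO libraries. Like Irf1 it was lowest in Runx1KO and highest in ZebDKO cells with no overlap, with differences of −2.55 (SE 0.0816, adjusted p = 3.06e-07) and 1.3 (SE 0.09, adjusted p = 8.85e-06). The synthetase Oas1a was at 0.2 to 0.3 TPM in control, 8.9 to 10.7 TPM in Runx1KO and 10.9 to 11.2 TPM in ZebDKO cells, and was called higher in both. Oas3 was listed at 0 in the control libraries and stood at 3.5 to 4.3 TPM in Runx1KO and at 1.9 TPM in ZebDKO libraries. The Oas1 genes are a family of near copies and their single values are uncertain. The DNA sensor family member Ifi204 stood at 23.4 to 25.3, 3.3 to 4.3 and 12 to 15.3 TPM.

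In antigen presentation, Nlrc5, the transactivator of class I genes, was at 0.3, 0.2 and 0.4 TPM in control, 4.6, 4.3 and 4.4 TPM in Runx1KO and 5.1, 6.1 and 5.1 TPM in ZebDKO libraries. Its differences from control were 2.07 (SE 0.0873, adjusted p = 1.21e-06) and 2.31 (SE 0.102, adjusted p = 1.17e-06), and its direction was set by the filter. H2-T23, a nonclassical class I chain, was at 23.8 to 25.6, 61 to 66.6 and 57.9 to 63.7 TPM, and rose in both. H2-L and H2-Q4 were at 77.1 to 87.6 and 18.1 to 22 TPM in control, 155 to 166 and 40.6 to 48 TPM in Runx1KO and 317.6 to 344.2 and 75.1 to 87.2 TPM in ZebDKO libraries. The second deposited table listed H2-L at 0 in all its libraries, so its values are uncertain. Cd74, the invariant chain of class II molecules, was at 0.3 to 0.7, 7 to 8.5 and 76.4 to 88.5 TPM, and differed directly by −3.29 (SE 0.0805, adjusted p = 8.22e-08). Psmb10, the remaining immunoproteasome subunit, was at 83.9 to 86.9, 46.3 to 56 and 96.8 to 106.2 TPM, so that the 3 subunits had 3 different orders over the genotypes.

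Open chromatin and Runx binding around the members were taken from peak lists that hold no value per replicate, so that no replicate error is given and no test was made. ATAC-seq, which marks open chromatin, was available as peaks gained, lost or stable in Runx1KO against control cells. ChIP-seq gave Runx1 peaks in control cells and Runx2 peaks in control and Runx1KO cells. Distances are from the 5′-most annotated start, in mm9. Within 20 kb, 9 of the 41 members (22%) had a gained ATAC-seq peak against 27.5% of 11243 tested genes, and 12 (29.3%) had a lost one against 17.3%. A Runx1 peak lay near 12 members (29.3%, against 36.3%), a control Runx2 peak near 24 (58.5%, against 67.6%) and a Runx2 peak in Runx1KO cells near 28 (68.3%, against 69.7%). Neighbouring members share peaks. The 41 members include some that were not tested, while the share of all genes covers tested genes only.

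**Figure D4:**
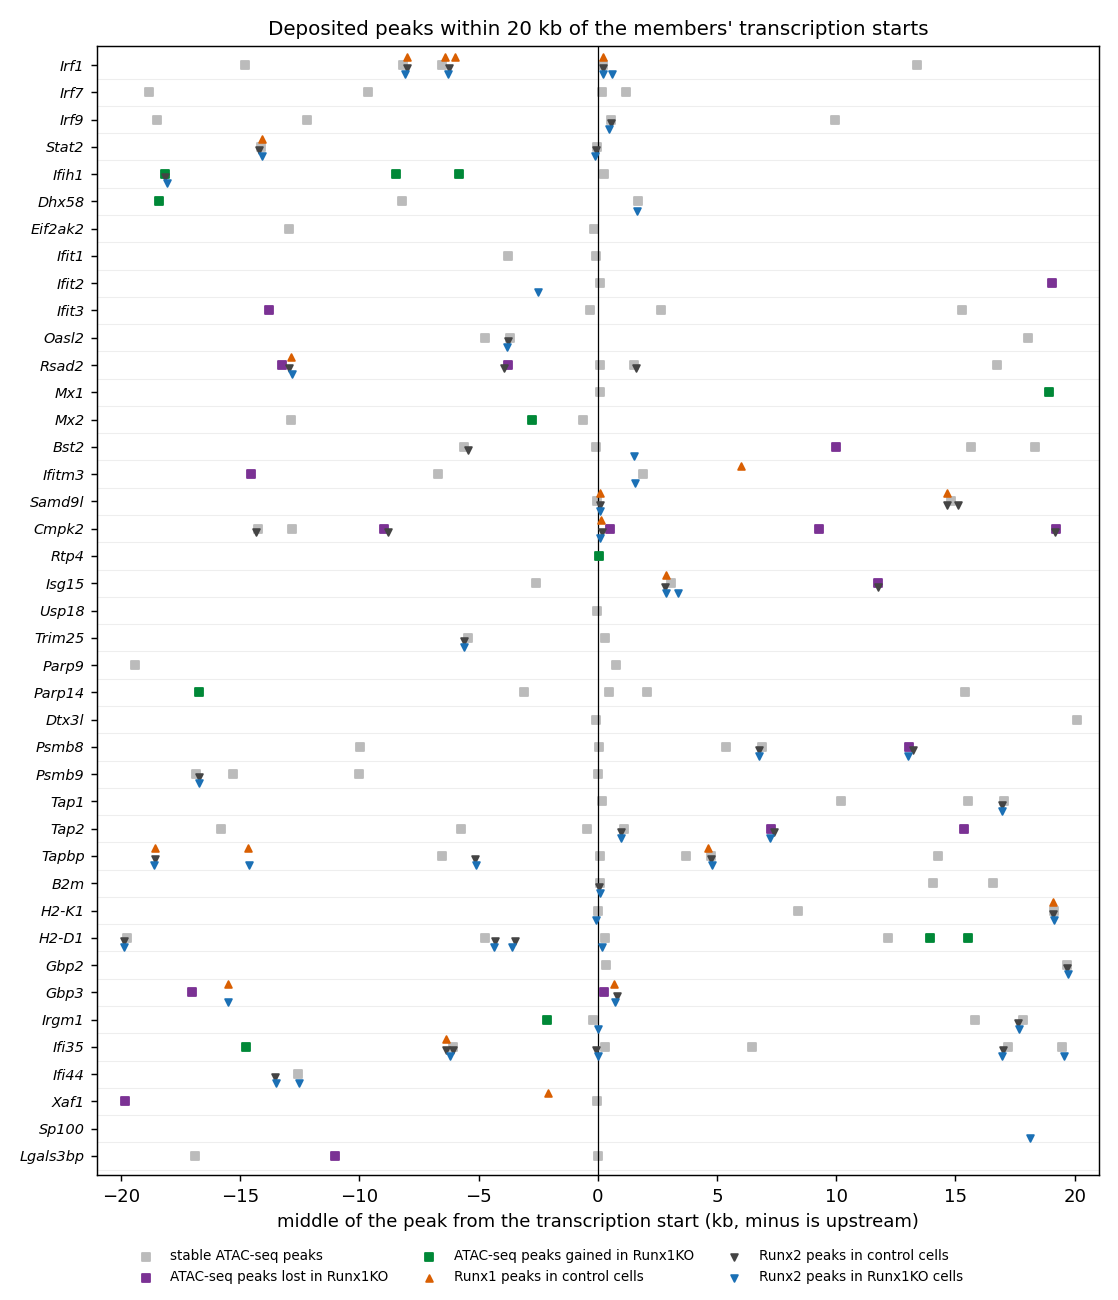
Distance in kb from the middle of each deposited peak to the transcription start of each of the 41 members, where negative values are upstream, squares are ATAC-seq peaks and triangles are Runx1 or Runx2 ChIP-seq peaks. Stable ATAC-seq peaks line up at most starts, while gained and lost peaks lie mostly away from them, except at Rtp4, Cmpk2 and Gbp3.

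Close to the start, within 1 kb, a stable ATAC-seq peak lay at 32 members (78%, against 78.9% of all genes). A gained peak lay only at Rtp4 (2.44%, against 4.42%) and a lost peak only at Cmpk2 and Gbp3 (4.88%, against 2.37%). Runx1 peaks lay at 4 members, Irf1, Samd9l, Cmpk2 and Gbp3 (9.76%, against 18.3%). Runx2 peaks lay at 9 members in control cells (22%, against 45.2%) and at 12 in Runx1KO cells (29.3%, against 47.9%). Of the 13 members called in any comparison, only Irf1 had a Runx1 peak within 1 kb. Irf1 lay in a stable peak at chr11:53583163-53584338 that covered an untranslated exon, with a Runx1 peak at chr11:53583624-53583819 of 3.35-fold enrichment. At the Irf1 start Runx2 peaks were listed in control cells at 4-fold and in Runx1KO cells at 3.46-fold enrichment. H2-K1 had a Runx2 peak in Runx1KO cells at chr17:34137223-34137483 (4.14-fold), and H2-D1 one at chr17:35399754-35399964 (3.19-fold), with none in the control list within 1 kb of either. Ifitm3 had no peak of any list within 1 kb. Within 20 kb it had a Runx1 peak 5999 bases after its start and a lost ATAC-seq peak 14562 bases before it.

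Cmpk2 was one of 3 members with a gained or lost peak within 1 kb of the start. A lost ATAC-seq peak at chr12:27153862-27155291 overlapped a Runx1 peak at chr12:27153967-27154444 (6.55-fold) and Runx2 peaks of 7.78-fold in control and 7.42-fold in Runx1KO cells. Its promoter, printed because it overlaps these peaks, holds the Runx core on each strand and an E-box, all in capitals.
Cmpk2, chr12:27153880-27154079, plus strand: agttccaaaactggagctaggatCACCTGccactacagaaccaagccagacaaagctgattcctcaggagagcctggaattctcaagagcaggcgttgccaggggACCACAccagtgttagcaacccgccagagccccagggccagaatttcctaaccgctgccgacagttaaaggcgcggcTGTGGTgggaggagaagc
Cmpk2 had 4 lost ATAC-seq peaks within 20 kb. The neighbour Rsad2 had 2 of the same lost peaks. The filter set the direction of its rise in Runx1KO cells, and the fall of Cmpk2 was not called, so that no contrast between the 2 genes is drawn. Of the 9 members with a gained peak within 20 kb, Mx2 had one 2747 bases before its start. Ifih1 had gained peaks at 5834, 8476 and 18134 bases before its start. The others were Dhx58, Mx1, Rtp4, Parp14, H2-D1, Irgm1 and Ifi35, none of which was called in Runx1KO against control cells. The peak lists do not cover ZebDKO cells.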

How the data were processed

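Polyadenylated RNA of 9 mK4 cultures (3 control, 3 Runx1KO, 3 ZebDKO) was sequenced, and the cells of each group were grown in triplicate, so that p-values measure the spread among these cultures. The authors trimmed reads with Trim Galore, checked them with FastQC and aligned them to mm9, and deposited gene values as TPM rounded to 0.1. The submitters' processing notes name featureCounts 1.6.2 and DESeq2 1.26.0 for the ZebDKO libraries. A second deposited TPM table held the control and Runx1KO libraries alone and served as an alternative. The authors called ChIP-seq peaks with MACS2 on combined replicates, and the deposited lists give a score, a fold enrichment over local background and a −log10 q for each peak. The deposited ATAC-seq lists also hold log2 fold changes and −log10 values from the authors' own comparison, which were not used.

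The members and gene lists were chosen with earlier results of these data known. The test was limma 3.58.1 in R 4.3.3 on log2(TPM + 1), where the prior variance followed mean expression, for genes at 1 TPM or more in 3 of the 6 libraries compared. P-values were Benjamini-Hochberg adjusted over all genes tested, and the fit was tested on simulated data. The authors' methods use DESeq2 on counts, and the deposited TPM took a linear model instead. All members called in any comparison are given by library. Named pathway genes were drawn from the called ones with the largest change, at most 10 in each comparison, and from a short fixed list. Peaks were assigned within 20 kb of the 5′-most GENCODE vM1 start, and 1824 of the genes tested in Runx1KO against control cells had no unique position. Promoters came from RefSeq (GRCm38.p6), 8 members had no entry, and all 39 member windows were found once in mm9. Python 3.11.15, numpy 2.4.6, pandas 2.3.3 and matplotlib 3.10.9 were used. Alternatives were other pseudocounts, filters, scalings and call limits, the replicate number as a block, the second table, each replicate left out and other peak windows.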

Additional observations from a re-analysis of the deposited data

Results flagged for a closer look

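Irf1 was called in opposite directions in the knockouts, with a difference from control of −1.16 in Runx1KO and of 2.11 in ZebDKO cells. The test of the difference itself, Runx1KO minus ZebDKO, gave −3.27 (SE 0.0725, limma adjusted p = 5.37e-08), and all 3 Runx1KO libraries lay below all 3 ZebDKO libraries. Cxcl10 did the same, with −2.55 and 1.3 against control and a direct difference of −3.85 (SE 0.0542, limma adjusted p = 1.4e-08). Both comparisons against control use the same 3 libraries.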

How the results depend on the processing

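Called members kept their direction in each alternative that tested them. This shows little, since a call needs a change over 2-fold and the filter had set the direction of several of them. Under the filter of 5 TPM only 23 members were tested in Runx1KO and in ZebDKO against control cells, and 31 in the second deposited set of values. Setting the looser call limits aside, 133 of 139 values of called members stayed past the limit in Runx1KO against control cells (the exceptions were Ifih1 and Ifit1), 115 of 118 in ZebDKO against control cells (Gbp2) and 82 of 88 in the direct comparison (H2-K1, Ifit1 and Rsad2).
A pseudocount of 0.1 TPM gave 5 members lower in Runx1KO and 4 lower in ZebDKO against control cells and 6 higher in Runx1KO against ZebDKO cells, and one of 0.5 TPM gave 5 higher in the last. A filter of 5 TPM, which tests fewer genes, left 3 higher in Runx1KO, 1 lower in ZebDKO and 0 higher in the direct comparison by limma. Median-ratio scaling gave 1 lower in ZebDKO and 1 higher in the direct comparison, and over all genes 1181 higher and 665 lower in ZebDKO cells in place of 972 and 944. The cause was not tested for the pseudocounts and scalings.
A limit of 1.3-fold gave 14 higher and 7 lower in Runx1KO, 14 and 9 in ZebDKO and 13 and 10 in the direct comparison, and adjusted p alone gave 20 and 7, 14 and 10, and 18 and 11. Leaving out single libraries gave 6 to 8 higher and 2 lower in Runx1KO, 6 higher and 1 to 3 lower in ZebDKO (1 without control replicate 3, 3 without control replicate 1), and 1 to 4 higher and 3 to 5 lower in the direct comparison (4 without Runx1KO replicate 1, 1 without Runx1KO replicate 3).
Samples with the same replicate number correlated at −0.0532 to 0.0385, so the numbers only name them, and the replicate block left all counts as they were (7 and 2, 6 and 2, 2 and 4).
Members near a peak moved with the window. Gained ATAC-seq peaks lay near 1, 3 and 22 members at 1, 5 and 50 kb (2.44%, 7.32% and 53.7%, against 4.42%, 9.62% and 49.8% of all genes). Lost peaks lay near 2, 3 and 17 members at these windows (4.88%, 7.32% and 41.5%, against 2.37%, 5.24% and 35.7%). Runx1 peaks lay near 4, 7 and 27 (9.76%, 17.1% and 65.9%, against 18.3%, 22.6% and 55.2%). Runx2 peaks lay near 9 and 14 in control cells at 1 and 5 kb (22% and 34.1%, against 45.2% and 51.9%). In Runx1KO cells they lay near 12 at 1 kb (29.3%, against 47.9%).
Read depth behind TPM is unknown, and values are in steps of 0.1 TPM, so differences among members under 1 TPM are coarse.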
